A study of Arabidopsis thaliana with 6 samples.

Results

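The plastid genes psaA, psaB, psaC, rps14 and ycf3 were followed in Arabidopsis arrays of wild-type plants and of albino msh1 mutants. A probe set was taken as a member where the array annotation paired it with one of these genes alone. This gave 5 genes with 1 probe set each, out of 69 plastid-encoded genes and 13355 named genes in all, on an array with 22746 tested probe sets. The series holds 3 arrays of line wild type and 3 of line msh1 albino mutant, each from the aerial part of a plant aged 4 weeks and each labelled a separate biological replicate. The plants of both lines were kept at 24 °C on MS medium that held 1.5% sucrose, with 12 h of light and 12 h of dark. Neither the msh1 allele nor the wild-type accession is named in the labels. Every mutant array came from albino tissue, so genotype and albino state cannot be told apart. No green msh1 tissue was analysed here.

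Photosystem I is the light-driven complex that passes electrons from plastocyanin to ferredoxin in the thylakoid membrane. PsaA and PsaB are its large core proteins and carry most of its pigments and the first electron carriers, and PsaC is a small stromal subunit whose iron-sulfur clusters hand electrons on to ferredoxin. Ycf3 is not part of the finished complex but an assembly factor of it, and its gene contains introns. The product of rps14 is a protein of the small subunit of the plastid ribosome. In land plants psaA, psaB and rps14 are transcribed together, ycf3 lies beside psaA, and psaC lies elsewhere on the plastid chromosome among genes of the NADH dehydrogenase-like complex. The nuclear gene MSH1 codes for a protein related to bacterial MutS that is imported into plastids and mitochondria and limits recombination of their genomes. Photosystem genes of the plastid are transcribed mainly by a bacterial-type polymerase whose core subunits the plastid encodes, and some other plastid genes mainly by a phage-type polymerase encoded in the nucleus.

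Values are on the log2 scale of RMA, the authors' method for background correction, normalization between arrays and summary of probes, so that a difference of 1 is a 2-fold difference. A difference is msh1 albino minus wild type, and its test is limma with Benjamini-Hochberg adjustment over all 22746 probe sets at a threshold of 0.05. Within a group the arrays had correlations of 0.989 to 0.995 over probe sets, against 0.969 to 0.985 between groups. The 75th percentile of an array was 7.75 to 7.94, and precision is limited by having 3 arrays in a group. As a check of the tissue, 3 of 7 listed green-leaf markers were measured and stood at means of 12.16 to 13.53 in wild type and 11.09 to 12.83 in albino tissue. All 3 were called lower in albino tissue, as were psaB and 7.44% of all probe sets. RCA, RuBisCO activase, was at -0.48 (limma adjusted p = 0.0435). The minor antenna genes LHCB4.1 and LHCB4.2 were at -0.70 and -1.08 (limma adjusted p = 0.00927 and 0.00657). Of 6 listed root markers 2 were measured. EXPA7, an expansin of root hairs, was near 4.19 and 4.18. The β-glucosidase gene PYK10 had means of 7.86 ± 0.74 (wild type) and 9.25 ± 0.75 (albino; SD, n = 3), with a limma adjusted p of 0.0911. The part of other tissue in the results was not tested.

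One member was lower in albino tissue and one was higher. psaB fell 2.47-fold and the neighbouring assembly gene ycf3 rose 2.19-fold. psaA had a difference of -1.52 that did not pass with all arrays and passed only when wild-type replicate 1, which stood far below the other wild-type arrays, was left out. rps14 and psaC did not pass. Among all probe sets tested 11.2% were called, 7.44% lower and 3.75% higher, and of the 69 plastid genes 21 were lower and 6 higher. In whole tissue, fewer plastids or cells and less of a transcript per plastid or cell cannot be told apart.

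**Figure D1:**
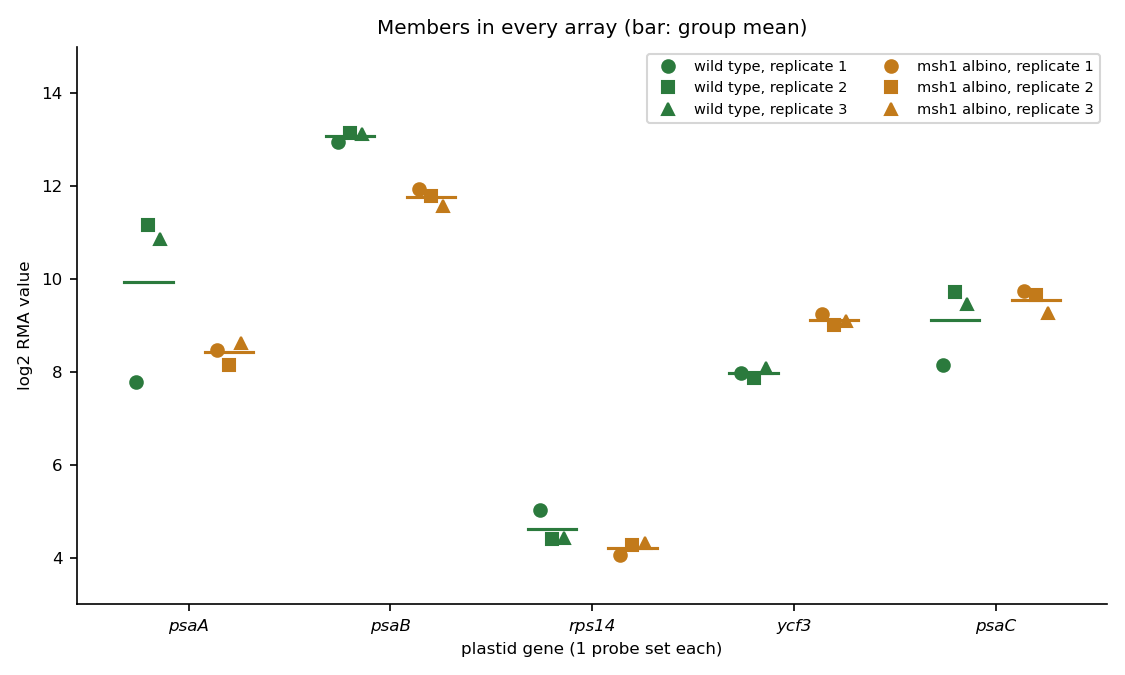
The vertical axis is the log2 RMA value of each of the 5 plastid genes, with 1 point per array (green for wild type, orange for msh1 albino, shape for the replicate) and a bar at each group mean. psaB is lower and ycf3 higher in every albino array, and wild-type replicate 1 lies apart from the other wild-type arrays in psaA and psaC. Heights of different genes come from different probes and are not comparable.

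psaB, for the PsaB core protein, read 12.96, 13.15 and 13.13 in wild-type replicates 1 to 3 and 11.95, 11.80 and 11.58 in albino replicates 1 to 3. Every albino array lay below every wild-type array, and the arrays of a group lay close together. The mean went from 13.08 ± 0.10 to 11.78 ± 0.18 (SD, n = 3), a difference of -1.31 ± 0.12 (SE; 95% interval -1.58 to -1.03; limma adjusted p = 0.00195). Ordered from the largest fall, psaB had rank 16 of the 69 plastid genes. The wild-type mean stood at percentile 99.9 of all probe sets. Whether the probe set reads changes in full at that height was not tested, which limits its fold, rank and ratios. Its difference stayed between -1.39 and -1.03, and its call held, in all 17 alternative settings.

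psaA, for the partner core protein PsaA, read 7.79, 11.18 and 10.86 in wild type and 8.48, 8.16 and 8.62 in albino tissue. The groups overlapped because wild-type replicate 1 lay below every albino array, while the other wild-type arrays lay above all of them. The difference was -1.52 ± 0.78 (SE, 3 arrays per group; 95% interval -3.34 to 0.30) and did not pass (limma adjusted p = 0.286). Without wild-type replicate 1 it was -2.59, a 6.03-fold lower value, and passed (limma adjusted p = 0.00193; in that fit 5.28% of all probe sets were called lower and 2.59% higher). psaA then had rank 5 from the largest fall among the 69 plastid genes, against rank 14 with all arrays. Leaving out wild-type replicate 2 instead gave -0.90 (limma adjusted p = 0.614), the smallest difference with 1 array left out. The size of the psaA difference thus rested on which wild-type arrays were used.

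rps14, for the ribosomal protein, read 5.02, 4.40 and 4.43 in wild type and 4.05, 4.28 and 4.31 in albino tissue. All 3 albino arrays lay below all wild-type arrays, by 0.08 at the nearest pair, and non-overlap in this direction was found in 19.8% of all probe sets. The difference of -0.40 ± 0.18 (SE; 95% interval -0.81 to 0.01) did not pass (limma adjusted p = 0.207), and without wild-type replicate 1 it was -0.20. The wild-type mean stood at percentile 36.1 of all probe sets. Background was not measured here, so whether this probe set reads its transcript above background was not settled.

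ycf3, for the assembly factor, read 7.99, 7.88 and 8.09 in wild type and 9.26, 9.00 and 9.09 in albino tissue. Every albino array lay above every wild-type array, by 0.91 at the nearest pair, and 10.1% of all probe sets had no overlap in this direction (29.9% in either). The mean went from 7.99 ± 0.11 to 9.12 ± 0.13 (SD, n = 3), a difference of 1.13 ± 0.11 (SE; 95% interval 0.88 to 1.38; limma adjusted p = 0.00203). Only 2 of the 69 plastid genes, rpoC2 and rpl20, had a higher difference. The value ranged from 1.06 to 1.27 over the 17 alternatives and its call held in each.

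psaC, for the iron-sulfur subunit, read 8.15, 9.71 and 9.46 in wild type and 9.73, 9.66 and 9.28 in albino tissue. Wild-type replicate 1 was again the lowest array, and the other wild-type arrays lay within the albino range. The difference was 0.45 ± 0.37 (SE; 95% interval -0.41 to 1.31; limma adjusted p = 0.534). Without wild-type replicate 1 it was -0.03 (adjusted p = 0.941), with an interval of -0.43 to 0.36. A change of psaC in either direction was not detectable with these arrays, and without that array a fall as large as that of psaB lay outside the interval.

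Wild-type replicate 1 stood apart in a small set of plastid genes rather than in the members alone. It was more than 1 below the mean of wild-type replicates 2 and 3 in 10 of 69 plastid genes (14.5%), compared with 0.466% of all probe sets on that array. The 10 were psaA (-3.22), ndhH (-3.10), ycf4 (-2.03), accD (-1.57), psaC (-1.44), psbB (-1.39), ndhG (-1.29), rpoB (-1.15), atpH (-1.13) and ndhE (-1.06). In the same array psaB was off by -0.18, rps14 by 0.61 and ycf3, which lies beside psaA, by 0.00. psaB, transcribed together with psaA, did not show this low value. Its wild-type mean stood at percentile 99.9 of all probe sets. Whether so bright a probe set would show such a drop was not tested. For rps14, whose reading above background was not settled, whether it shared the low value could not be decided. In the albino arrays the same measure ran from -0.42 to 0.30 over the 5 members. The labels name no batch, and what set this array apart was not tested.

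**Figure D2:**
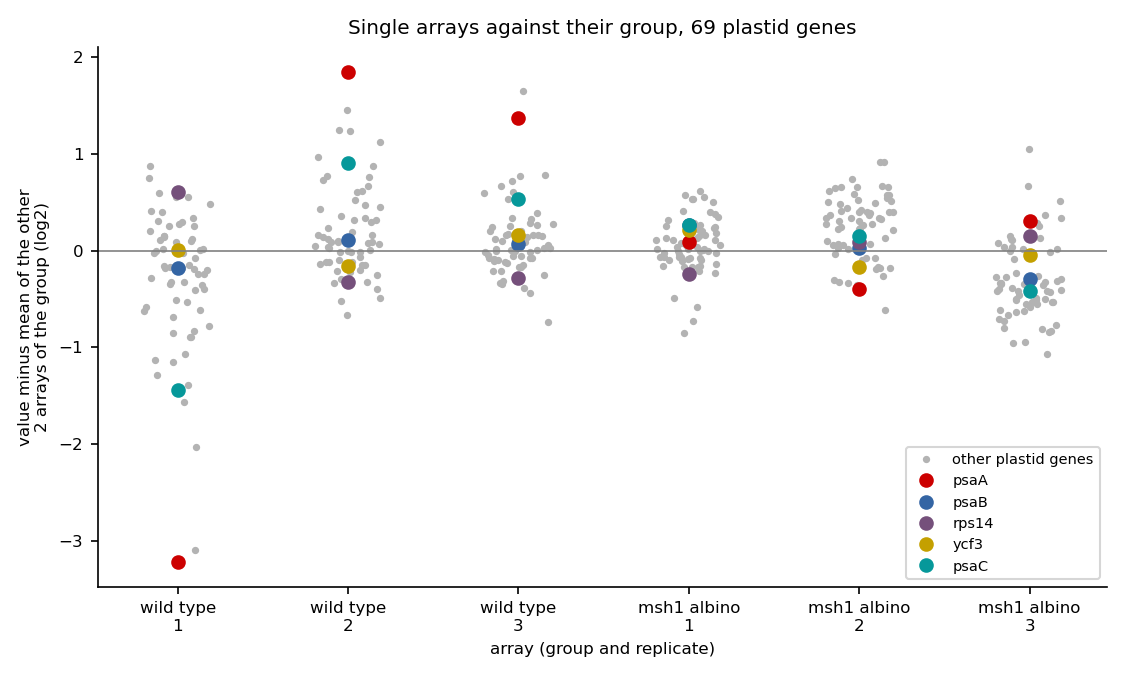
Each point is a plastid gene, and the vertical axis is its log2 value in one array minus the mean of the other 2 arrays of that group. Coloured points are the 5 members and grey points the other plastid genes. In wild-type replicate 1 psaA lies at -3.22 and psaC at -1.44, while psaB and ycf3 lie near 0.

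Ratios between members within an array do not depend on scaling by a constant, so the change of each ratio was compared for the 10 pairs. The ratio of ycf3 to psaB was higher in albino tissue by 2.44 on the log2 scale, with SDs of 0.16 in wild type and 0.15 in albino tissue. The groups did not overlap (two-sided exact permutation p = 0.1, which is the lowest possible with 3 arrays a group; 0.167 adjusted over the 10 pairs). ycf3 and psaB, which have only psaA between them, thus moved apart by far more than the spread of their ratio. The ratio of ycf3 to psaA rose by 2.65 with no overlap (exact permutation p = 0.1), and by 3.72 without wild-type replicate 1.

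For the core genes themselves, the ratio of psaB to psaA differed by 0.21, with overlapping groups (exact permutation p = 1). Its wild-type SD was 1.76, and without wild-type replicate 1 the ratio was higher in albino tissue by 1.23, meaning a larger fall of psaA. The value was -0.37 without wild-type replicate 2 and -0.22 without replicate 3, so no order of these genes could be given. The ratio of rps14 to psaB was higher by 0.91 with no overlap (exact permutation p = 0.1, 0.167 adjusted). Whether the rps14 probe set reads above background was not settled, which limits the reading of this ratio. The ratio of psaC to psaB was higher by 1.75 (exact permutation p = 0.1), or by 1.33 without wild-type replicate 1. The 10 pairs share members and so are not independent, and with 3 arrays a group none could pass 0.05.

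**Figure D3:**
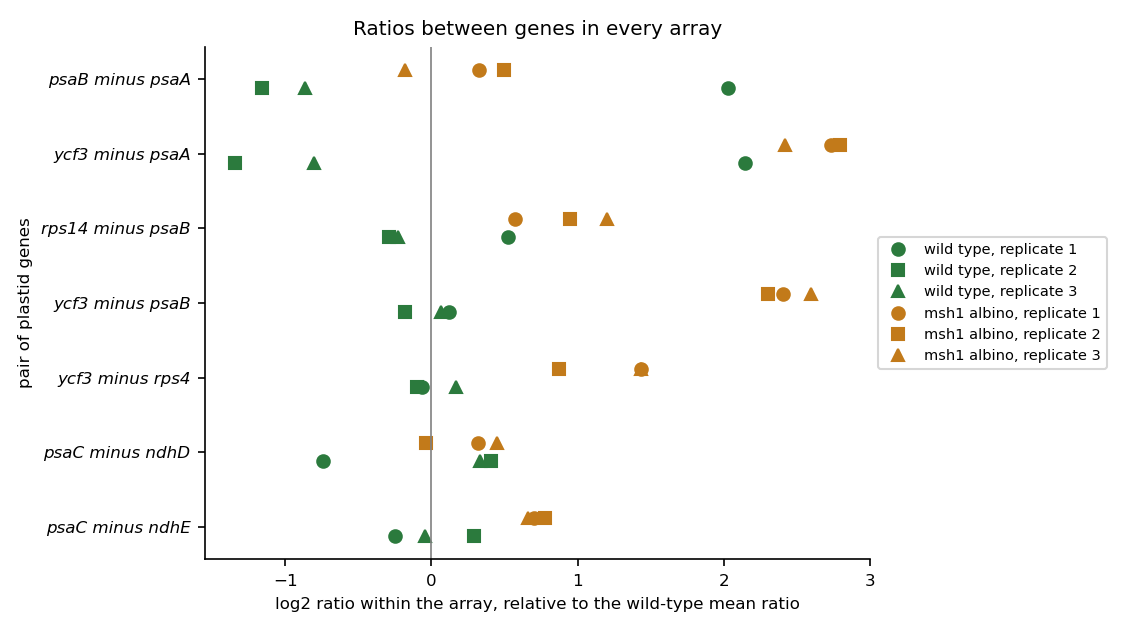
The horizontal axis is the log2 ratio of a pair of plastid genes within each array, set to 0 at the wild-type mean, with 1 point per array. The albino points of ycf3 against psaB lie around 2.44 with no overlap, and the wild-type points of pairs with psaA are spread by replicate 1.

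Along the plastid chromosome every measured protein-coding gene from psbD to psaA had a difference below 0, and the next gene, ycf3, lay above 0. On the rps14 side the next genes, psbZ, psbC and psbD of photosystem II, had differences of -2.05 ± 0.28, -2.72 ± 0.26 and -2.30 ± 0.25 (SE) and all fell. Next to psbZ, a small subunit gene, lies rps14, and the ratio of rps14 to psbZ was higher by 1.65 with no overlap (exact permutation p = 0.1, 0.133 adjusted over 4 pairs of a member and a flanking gene). As in its ratio to psaB, the unsettled background of rps14 limits the reading. On the other side rps4, a ribosomal protein gene, was not called (-0.12 ± 0.13). The ratio of ycf3 to rps4 rose by 1.25 with no overlap (exact permutation p = 0.1, 0.133 adjusted). Beyond rps4, ndhJ of the NADH dehydrogenase-like complex fell (-1.96 ± 0.16). Of the 9 measured genes from psbD to ndhJ, 5 fell and 1 rose, and 6 fell without wild-type replicate 1. Over all probe sets 7.44% were called lower and 3.75% higher, and without that array 5.28% were called lower. The 9 include the members psaA, psaB, rps14 and ycf3. The median of the 9, -1.52, is the difference of psaA, which was not called with all arrays.

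Next to psaC, ndhD and ndhE, on either side of it, had differences of 0.20 ± 0.22 and -0.27 ± 0.28 (SE) and neither passed. The ratio of psaC to ndhD was higher by 0.24 with overlapping groups (exact permutation p = 0.7), and turned to -0.13 without wild-type replicate 1. Its ratio to ndhE was higher by 0.71 without overlap (exact permutation p = 0.1, 0.133 adjusted), and by 0.59 without wild-type replicate 1. Of the 8 genes from ndhD to rps15, 1 passed and was higher, rps15 (0.98 ± 0.23; limma adjusted p = 0.0337), a share near the 11.2% of all probe sets called, and the median was -0.03 against -0.04 over all probe sets. rps15 kept its call only without albino replicate 3 (0.00614) and lost it without any other array (adjusted p = 0.0556 to 0.127). Without wild-type replicate 1 ndhE and ndhG were called lower (-0.62 and -0.76), and the median was -0.32.

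**Figure D4:**
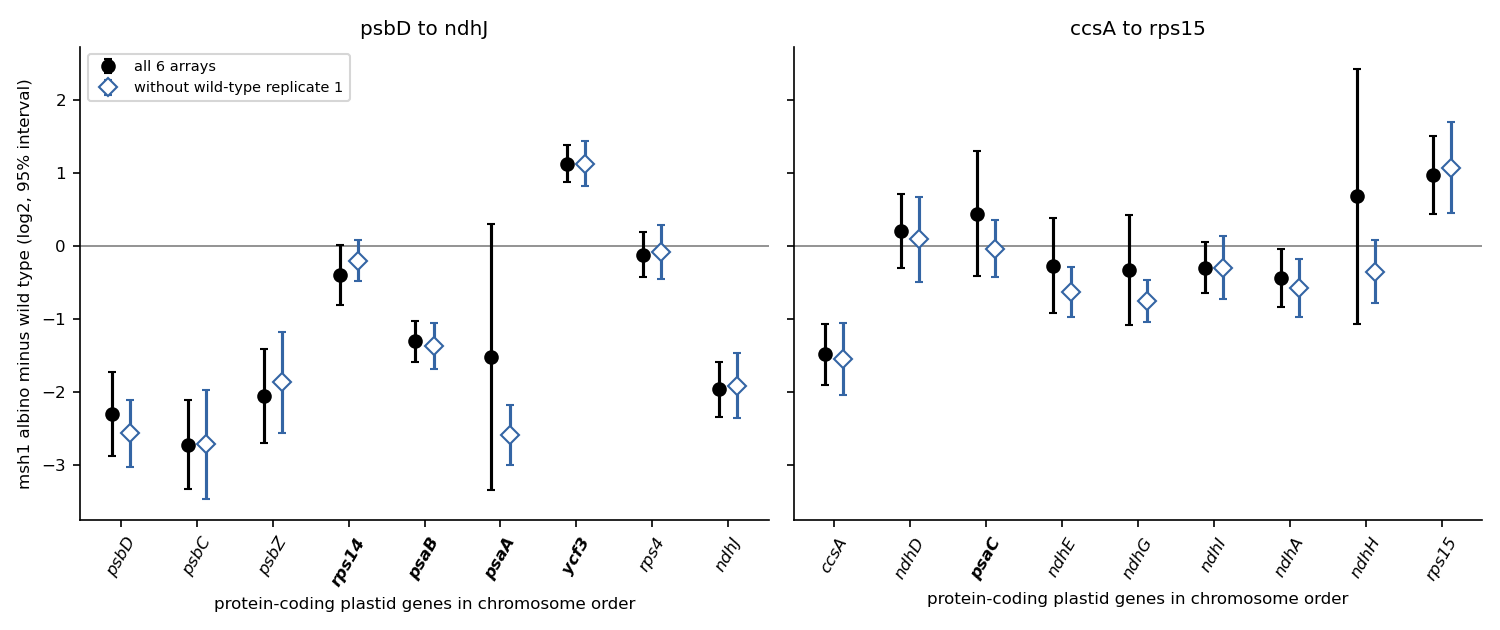
The vertical axis is the difference, msh1 albino minus wild type, in log2 units with its 95% interval, for protein-coding plastid genes in chromosome order around the psaA and the psaC loci, members in bold. Black points use all 6 arrays and open blue points leave out wild-type replicate 1. ycf3 lies at 1.13 between psaA and rps4, and the psaA interval narrows when the array is left out.

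The plastid genes psaJ and psaI of photosystem I also fell. psaJ, for a small membrane subunit, had a difference of -1.55 ± 0.24 (SE; limma adjusted p = 0.00919), and psaI, for another, had -1.06 ± 0.16 (adjusted p = 0.00848). ycf4, for a further assembly factor, had -0.11 ± 0.51 and did not pass. Wild-type replicate 1 of ycf4 read 8.83 against 11.02 and 10.70 in the others, and without it ycf4 was lower by a called difference of -0.79 (adjusted p = 0.0393). Of the 7 plastid genes for photosystem I subunits or assembly, 3 fell and 1 rose with all arrays. Without wild-type replicate 1, 5 fell and 1 rose. Of the 69 plastid genes 21 fell and 6 rose with all arrays, and 28 fell and 5 rose without that array. Over all probe sets 7.44% were called lower and 3.75% higher, and 5.28% and 2.59% without that array. The 7 include the members psaA, psaB, psaC and ycf3, so the calls of psaB and ycf3 are counted again here. The median of the 7 was -1.06, compared with -0.35 for the 69 plastid genes and -0.04 for all probe sets tested.

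Few nuclear genes of the pathway were paired with a probe set. Of 12 listed nuclear subunits of photosystem I, 2 were measured and both fell, where 7.44% of all probe sets were called lower. PSAE-1, for a stromal subunit, went from 13.08 ± 0.09 to 12.16 ± 0.11 (SD, n = 3; difference -0.91, limma adjusted p = 0.00274). PSAN, for a lumenal subunit, went from 12.64 ± 0.06 to 11.87 ± 0.17 (difference -0.77, adjusted p = 0.00696). Of 10 listed assembly and maturation factors 2 were measured. HCF101, which takes part in supplying iron-sulfur clusters, fell by 0.40 ± 0.10 (adjusted p = 0.0400), a call that was lost when any one array was left out (0.0548 to 0.105). AT1G22700, known as PYG7, had a difference of -0.15 ± 0.10 (adjusted p = 0.397). The annotation paired no probe set with a single listed gene of the light-harvesting antenna of photosystem I or its electron carriers. The same held for the sigma factors and the polymerase-associated proteins. Probe sets without a name or with several genes were not searched for them.

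Of the 4 genes for the core of the plastid-encoded polymerase, rpoC2 (1.33 ± 0.13) and rpoA (0.70 ± 0.18; limma adjusted p = 0.0493) rose. Over all probe sets 3.75% were called higher. The others, rpoC1 (0.17 ± 0.14) and rpoB (0.77 ± 0.33), were not called (limma adjusted p = 0.532 and 0.191). The median over the 4 was 0.74, and 0.61 without wild-type replicate 1, an array in which rpoB was low. rpoA was no longer called, at adjusted p from 0.102 to 0.171, in the fits that left out wild-type replicate 2 or 3 or albino replicate 1 or 2. Of the nucleus-encoded organelle polymerases, 1 of 3 was measured, AT5G15700, with a difference of 0.22 ± 0.10 (adjusted p = 0.231). Among 8 measured ribosomal protein genes of the plastid small subunit, which include rps14, 1 rose, rps15 again, and 0 fell (with a median of -0.04; at an unadjusted p under 0.05 rps18 was also lower, at -0.75, and rps2 higher, at 0.59). Most genes of this list, rps14 among them, were not called, and the share called was near the 11.2% over all probe sets.

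The plastid genes with the pattern most like each member were taken by Pearson's r over the 6 arrays, as a description that mixes the group difference with single arrays. For psaB and ycf3, whose groups lay apart, a shared direction follows from this choice and is not a separate result. For psaB they were psbH (r = 0.988), petB (0.986) and ndhJ (0.984), all of which fell, by 2.56, 1.54 and 1.96. For ycf3 they were rpoC2 (0.951), rpl36 (0.931) and rpl20 (0.921), all of which rose, rpoC2 by 1.33 and rpl36 by 1.08. For psaA they were atpI (0.975), ndhG (0.961) and accD (0.925), of which ndhG and accD were also among the 10 genes low in wild-type replicate 1. For psaC they were ndhH (0.897), rpoB (0.816) and rpl22 (0.811), of which ndhH and rpoB were in that set. rps14 had no plastid gene above ndhC (0.797), psbA (0.760) and rps18 (0.734). psaA and psaB correlated with each other at 0.630 over the 6 arrays and at 0.968 without wild-type replicate 1. psaB and ycf3 correlated at -0.958.

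Among all 13512 other single-gene probe sets, higher correlations were reached for each member. For psaB the closest were AT5G50020 (0.999), AT2G03390 (0.999) and AT3G26630 (0.997), which fell by 0.46, 0.69 and 0.58. For ycf3 they were AT3G28580 (0.997), AT1G19600 (0.989) and AT5G53920 (0.987), of which AT3G28580 was called, at 0.51. For psaA they were AT2G30090 (0.998), GYRB3 (0.993) and AT2G18750 (0.993). For rps14 they were AT5G60630 (0.994), AT2G20500 (0.991) and AT2G37870 (0.987). For psaC they were AT3G58580 (0.986), THI2.1 (0.984) and AT5G01010 (0.978). None of these 9 genes named for psaA, rps14 and psaC passed the test. With 6 arrays and this many candidates such correlations describe these arrays and single out no gene.

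**Figure D5:**
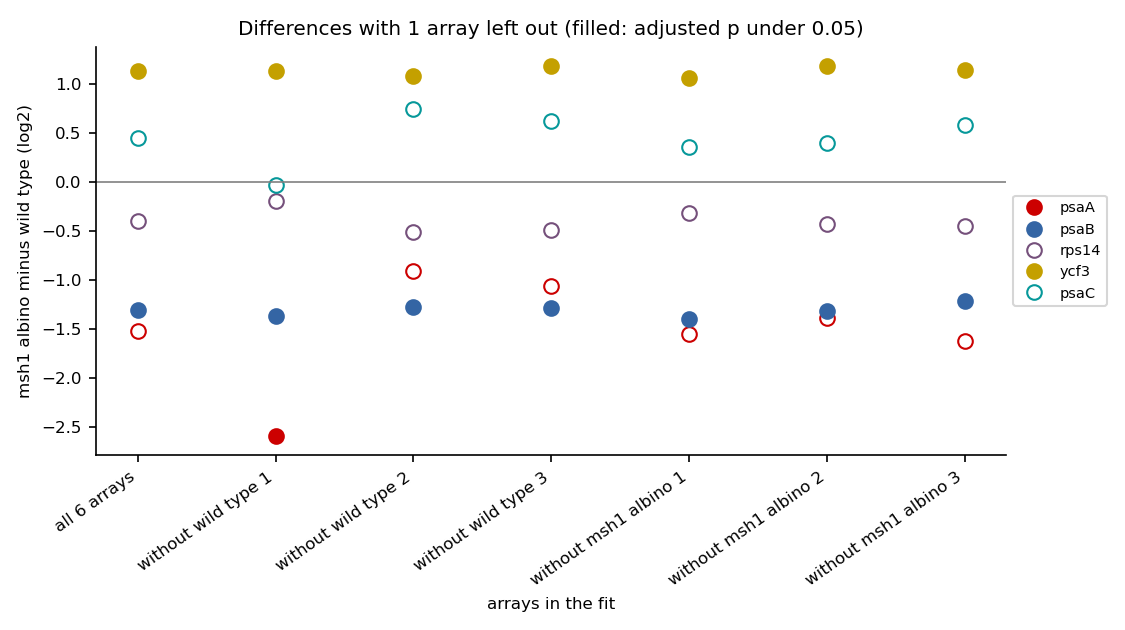
The vertical axis is the difference, msh1 albino minus wild type, in log2 units for each member, with all 6 arrays and with each array left out, and filled points have a limma adjusted p under 0.05. psaB and ycf3 are filled throughout, psaA is filled only without wild-type replicate 1, at -2.59, and rps14 and psaC are open throughout.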

How the data were processed

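Transcripts of 6 one-colour Affymetrix arrays were used, 3 wild type and 3 msh1 albino. The deposited log2 values, 1 for each probe set on each array, were made by the authors with RMA in the affy package, per the submitters' processing notes. No version, setting or genome build is stated there. RNA was extracted from each plant and labelled as biotinylated cRNA by the standard Affymetrix protocol, per the labels' protocols. The primer is not given, and plastid transcripts lack stable poly(A) tails, so their recovery relative to nuclear transcripts is unknown. A probe set cannot separate spliced from unspliced or short from long co-transcribed RNA.

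The values were used unfiltered, without the 64 array controls. Names came from the array annotation through the gene table of TAIR10.1, of which names and gene order were used (13436 matched by gene number, 48 by locus, 29 kept the older name, 503 had several genes and 8730 were unnamed). limma 3.58.1 in R 4.3.3 (lmFit, eBayes) compared the groups, two-sided, and was tested on simulated data. Single values per array were compared by exact permutation tests. Limma was also run after subtracting a member from every probe set, as planned. That fit was void because the member's own values, both its group difference and its noise, entered every row. The share of probe sets that passed was 98.4% after subtracting psaB and 97% for ycf3. It was 7.46% for rps14, 0.51% for psaC and 0.00879% for psaA, so no p-value of that fit is given. Samples with the same replicate number did not vary together, so no pairing was used.

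The members and lists were chosen with earlier results of these data known. Named genes were all members, their neighbours, the passing genes of each list (up to 6, or the 2 largest differences) and the 3 genes most like each member among plastid and among all genes. The ratios to flanking genes were added after seeing the data. Over the whole array 854 probe sets were called higher and 1693 lower (5835 passed at an unadjusted p under 0.05). Alternatives were 4 other scalings, leaving out each array, an adjusted p of 0.01, filters on the mean (25th or 50th percentile), array weights, a robust prior with an intensity trend, a block for the replicate number, and leaving out probe sets of shared sequence.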

Additional observations from a re-analysis of the deposited data

How the results depend on the processing

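The calls of psaB and ycf3 held, with their direction, in all 17 alternatives (highest adjusted p 0.0152 and 0.0155). rps14 passed in none of the 16 that kept it; the filter at the 50th percentile dropped it. psaA passed only without wild-type replicate 1 (-2.59, adjusted p = 0.00193), and with 1 array left out ranged from -2.59 to -0.90. psaC ranged from -0.03 to 0.75, the sign of its difference turning to -0.032 without wild-type replicate 1. The psaB to psaA ratio ranged from -0.37 to 1.23 and was -0.37 and -0.22 without wild-type replicates 2 and 3. Quantile normalization again gave 2.25 for ycf3 relative to psaB, a smaller change. The cause of these shifts was not tested.

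Counts over all probe sets, with 854 higher and 1693 lower as deposited (66.5% lower), became 1301 and 1095 with the 75th percentile aligned (45.7% lower), and 1613 and 777 with the 7 measured reference genes aligned (32.5% lower), where the median of all probe sets moved from -0.04 to 0.10. Of those 7 reference genes only AT2G28390 had a difference above 0 (0.13), and AT4G33380 was itself called lower (-0.34, limma adjusted p = 0.0455). Aligning on them therefore moved differences upward. After cyclic loess 1047 were lower (45.4%), and 52.2% were lower after quantile normalization. At an adjusted p of 0.01 there were 251 and 438. With 1 array left out, 298 to 749 were higher and 553 to 1424 lower. With the replicate number as a block there were 564 higher and 921 lower, and the calls of psaB and ycf3 held. Deviations of same-numbered arrays correlated at 0.01, -0.34 and -0.02 across probe sets, and those of different-numbered arrays at -0.27 to 0.35. No pairing by number was seen, though so few arrays cannot exclude one.

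In the lists, assembly factors had 0 lower with the 75th percentile or reference genes aligned, cyclic loess, quantile normalization, the intensity trend, the block, an adjusted p of 0.01, or any array left out (0 to 0). Small-subunit ribosomal genes had 2 higher under those 4 scalings and array weights (which also gave 1 lower), 0 higher at 0.01, and 0 to 2 higher and 0 to 1 lower with 1 array left out. Polymerase genes had 1 higher under the block and at 0.01, and 1 to 2 with 1 array left out. Genes around psaC had 0 higher at 0.01, and 0 to 1 higher and 0 to 2 lower with 1 array left out. Plastid photosystem I genes had 3 to 5 lower with 1 array left out.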
